A study of Mus musculus with 20 samples.

Results

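The 4 mouse Fc gamma receptor genes, Fcgr1, Fcgr2b, Fcgr3 and Fcgr4, were followed across every treatment and hour of an RNA sequencing experiment. They were taken by gene symbol from the 42748 genes of the deposited RPKM table, and by gene identifier from the 50686 genes of the deposited count table. RPKM are read counts scaled by gene length and by library total. RPKM of different genes can be set side by side only as far as the length used suits the transcripts present. The cells were RAW264.7, an established mouse line of monocyte and macrophage character, which the labels also list under bone marrow as the source. This is a single transformed line, so it stands for primary osteoclast precursors only as far as that line does. RANKL, the cytokine that turns such cells into bone-resorbing osteoclasts, was given at 50 ng/ml. I-BET, an inhibitor of the BET bromodomain proteins that read acetylated histones, was given at 500 nM. Cells were left untreated (hour 0) or received RANKL, I-BET or RANKL plus I-BET for 4, 14 or 24 hours, which makes 10 groups of 2 libraries, 20 in all. The title and time labels of the untreated libraries give hour 0, but their sample names carry a 4 that the labels do not explain, so hour 0 is as labelled and not certain. With 1 untreated group, time in culture and treatment cannot be told apart in comparisons with it. The labels do not state whether the 2 libraries of a group were separate cultures, so p-values measure only the spread between these libraries, which may be technical.

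Fc gamma receptors are membrane proteins of myeloid cells that bind the constant part of immunoglobulin G, and so couple antibody-coated particles and immune complexes to phagocytosis and to inflammatory signalling. Fcgr1, Fcgr3 and Fcgr4 encode activating receptors whose ligand-binding chains pair with the common gamma chain, encoded by Fcer1g, which carries an activation motif (ITAM) that recruits the kinase SYK. Fcgr1 encodes the high-affinity receptor, Fcgr3 a low-affinity receptor and Fcgr4 a receptor of intermediate affinity. Fcgr2b encodes the inhibitory receptor, whose own motif (ITIM) recruits the phosphatase SHIP1, encoded by Inpp5d. In bone, immune complexes acting through these receptors are known to influence osteoclast formation.

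In mm10, Fcgr1 (ENSMUSG00000015947) lies on the minus strand at chr3:96282909-96293969. The other 3 genes form a cluster on chromosome 1. Fcgr2b (ENSMUSG00000026656) lies at chr1:170958617-170976547 and Fcgr3 (ENSMUSG00000059498) at chr1:171051174-171064935, both on the minus strand, with Fcgr4 (ENSMUSG00000059089) between them on the plus strand at chr1:171018920-171029761. The gene lengths behind the RPKM, 2589 bases for Fcgr1, 5790 for Fcgr2b, 1736 for Fcgr3 and 1256 for Fcgr4, equal the union of their annotated exons. Fcgr2b and Fcgr3 are close relatives in sequence: of all stretches of 100 bases in their annotated transcripts, 44 were identical between them, which is 0.753% of those of Fcgr2b and 2.54% of those of Fcgr3. At 50 bases 166 stretches were shared, 2.92% of those of Fcgr2b and 9.58% of those of Fcgr3. At 30 bases 238 were shared, 4.25% and 13.7%. No stretch of 100, 50 or 30 bases was shared by any other pair of the 4 genes. Reads from the shared part of Fcgr2b and Fcgr3 cannot be placed by sequence alone. The antisense gene Gm38204 overlaps Fcgr2b, the small nuclear RNA gene Gm26110 lies in Fcgr4 and Mir6546 lies in Fcgr3. Whether counting used strand is not given in the sources used here. Reads of Fcgr2b and of its antisense partner therefore cannot be told apart, although that partner had too few counts to be tested.

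The start-site regions of 3 receptors are shown. That of Fcgr2b is not, because its longest stretch outside annotated exons before the start was only 47 bases. Each of the 3 holds, close to the start, the core of the PU box. This is the purine-rich element bound by PU.1 (encoded by Spi1), a myeloid transcription factor. Sequences are RefSeq promoters (GRCm38.p6), for which all 4 genes matched, trimmed to the part outside annotated exons and written 5′ to 3′ on the strand of the gene. They cover chr3:96293970-96294219 on the minus strand for Fcgr1, chr1:171059404-171059626 on the minus strand for Fcgr3 and chr1:171018676-171018919 on the plus strand for Fcgr4. The Fcgr3 stretch lies inside the annotated span of that gene, upstream of one of its RefSeq starts. Capitals mark matches to the motifs searched.
Fcgr1: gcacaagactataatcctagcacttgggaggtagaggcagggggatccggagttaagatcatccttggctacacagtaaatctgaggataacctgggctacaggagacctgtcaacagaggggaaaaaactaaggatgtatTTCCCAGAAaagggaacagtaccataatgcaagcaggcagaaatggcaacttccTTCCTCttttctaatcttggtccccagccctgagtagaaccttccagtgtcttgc
Fcgr3: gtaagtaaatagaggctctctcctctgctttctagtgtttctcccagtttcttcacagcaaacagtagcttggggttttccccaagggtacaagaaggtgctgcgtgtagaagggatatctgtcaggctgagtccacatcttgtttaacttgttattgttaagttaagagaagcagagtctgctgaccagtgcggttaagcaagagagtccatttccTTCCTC
Fcgr4: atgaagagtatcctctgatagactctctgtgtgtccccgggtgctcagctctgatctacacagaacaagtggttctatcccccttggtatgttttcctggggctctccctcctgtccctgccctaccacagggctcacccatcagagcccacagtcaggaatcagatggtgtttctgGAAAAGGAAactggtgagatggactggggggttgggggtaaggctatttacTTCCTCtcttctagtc

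Motifs were searched on both strands in windows of 300 bases, 250 before and 50 after the start. GAGGAA, the PU box core, matched in Fcgr1, Fcgr3 and Fcgr4, each time as its reverse complement TTCCTC, and 28.3% of 32851 mouse promoters of the same length held it. The match began 55 bases before the start of Fcgr1 (position -55), at -22 in Fcgr4, and at -6 or -15 in Fcgr3, depending on which of its RefSeq starts is counted from. TTCNNNGAA, the interferon gamma activated site, matched at -109 in Fcgr1 as TTCCCAGAA and is held by 8.3% of promoters. GAAANNGAA, a core of the interferon stimulated response element bound by IRF factors, matched at -73 in Fcgr4 as GAAAAGGAA and is held by 8.56% of promoters. The E-box CACGTG, a motif of MYC and its relatives held by 7.15% of promoters, had no match in the 4 genes. No motif matched in the Fcgr2b window, where 203 of the 250 bases before the start overlap annotated exons. No 2 of these matches overlapped. They describe letters only: no binding was measured in these libraries.

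Total counts per library ran from 19051780 to 62313792, and the smallest library was untreated replicate 1. In untreated replicate 2, 5 rRNA-related genes took 10.1% of the counts, where they took 0.37% to 1.19% in each of the 19 remaining libraries. Leaving those genes out changed no call on a receptor. All 8 macrophage markers, among them Csf1r, Cd68 and Adgre1, were present, with a summed level of 1305 to 5945 RPKM over the libraries. Defining mast cell markers (Cpa3, Mcpt4 and Fcer1a), of interest because such cells also carry Fc receptors, were at 0 in every library. Summed markers of B cells, T cells, NK cells, neutrophils, fibroblasts, epithelium and endothelium reached at most 0.641 RPKM.

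In untreated cells Fcgr1 was the most abundant receptor RNA and Fcgr4 the least. Fcgr1 stood at 14.6 RPKM in replicate 1 and 16.2 in replicate 2, from 719 and 1681 counts. Fcgr3 stood at 7.14 and 5.01 RPKM, and Fcgr2b at 4.11 and 2.42. Fcgr4 stood at 2.01 and 0.812 RPKM, from only 48 and 41 counts. In both libraries the order was Fcgr1, Fcgr3, Fcgr2b and Fcgr4. Over all 20 libraries Fcgr1 spanned 0.645 to 16.2 RPKM (median 4.42), Fcgr2b 0.224 to 5.59 (median 0.857) and Fcgr3 0.493 to 7.14 (median 2.51). These ranges are 25-fold for both Fcgr1 and Fcgr2b and 14.5-fold for Fcgr3. Fcgr4 spanned 0.516 to 2.01 RPKM (median 0.814), a 3.89-fold range that rests on 18 to 116 counts per library. The first 3 receptors each had their lowest library among the RANKL libraries of 24 hours.

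**Figure D1:**
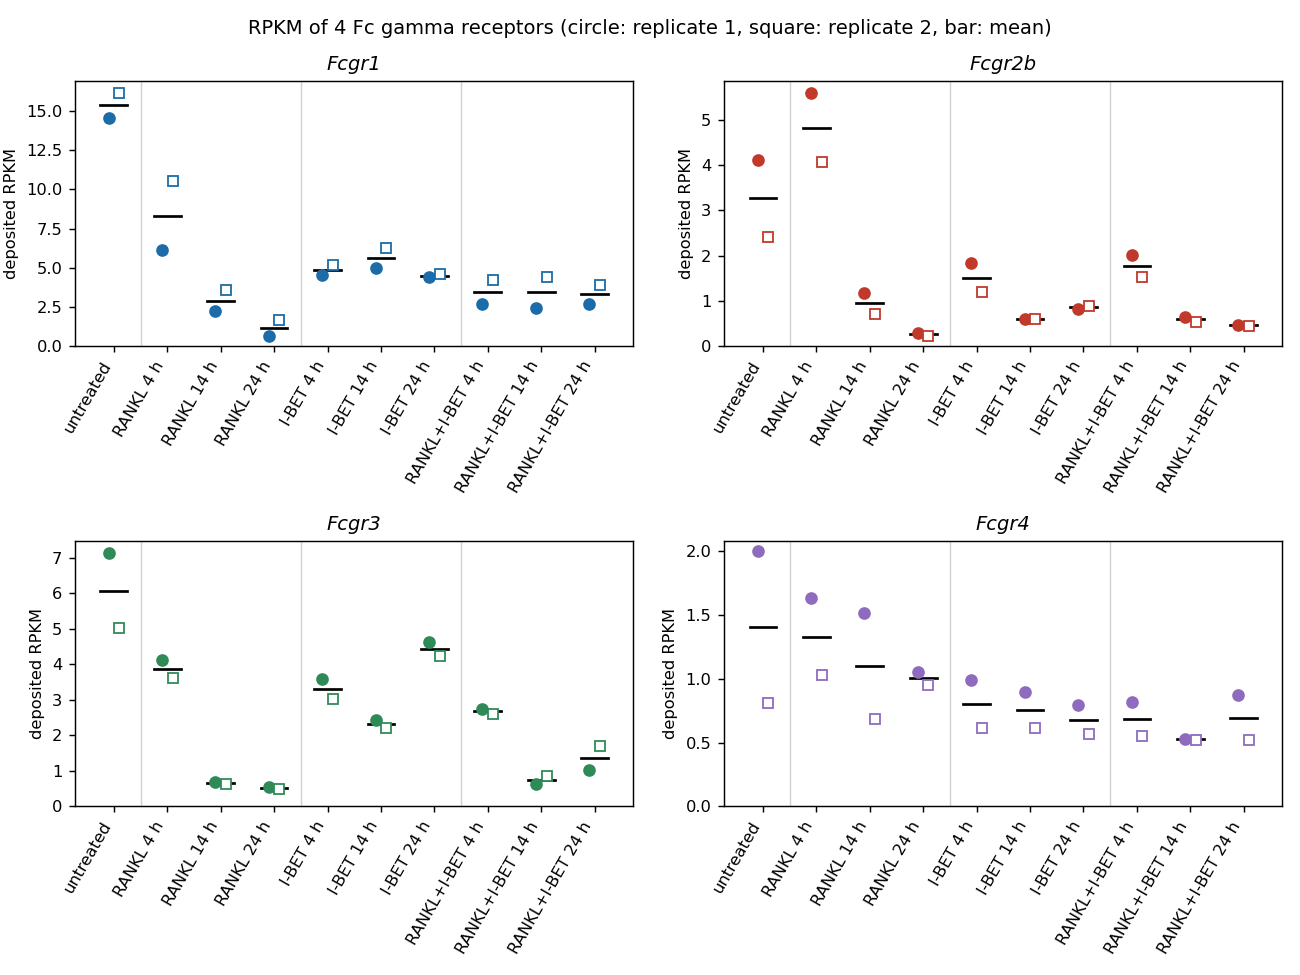
Deposited RPKM (linear axis, from 0) of Fcgr1, Fcgr2b, Fcgr3 and Fcgr4 in the 10 groups, with replicate 1 as a filled circle, replicate 2 as an open square and the mean of 2 as a bar. Fcgr1, Fcgr2b and Fcgr3 are lowest in RANKL at 24 hours, and the 2 untreated libraries of Fcgr4, at 2.01 and 0.812 RPKM, span most of its range.

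Ranked by mean RPKM, Fcgr1 ran from untreated (15.4 ± 1.11, SD, n = 2, as for all group means) through RANKL at 4 hours (8.31 ± 3.12) down to RANKL at 14 hours (2.89 ± 0.967) and RANKL at 24 hours (1.15 ± 0.718). The 6 groups that received I-BET lay between, from 5.62 ± 0.930 (I-BET at 14 hours) to 3.30 ± 0.834 (RANKL plus I-BET at 24 hours). Along that order neighbouring groups overlapped except below untreated, below I-BET at 24 hours and below RANKL at 14 hours. Fcgr2b had its highest mean in RANKL at 4 hours (4.83 ± 1.08) and its next in untreated cells (3.26 ± 1.19), and these overlapped by the untreated replicate 1 value. Its lowest means were 0.455 ± 0.0201 in RANKL plus I-BET and 0.260 ± 0.0519 in RANKL, both at 24 hours, with no overlap. Fcgr3 was highest in untreated cells (6.08 ± 1.5) and next in I-BET at 24 hours (4.43 ± 0.266), which did not overlap. For Fcgr3 the only neighbours in order that overlapped were RANKL plus I-BET at 14 hours (0.748 ± 0.154) and RANKL at 14 hours (0.652 ± 0.0351). Fcgr4 ran from 1.41 ± 0.844 in untreated cells to 0.524 ± 0.00827 in RANKL plus I-BET at 14 hours, and all its neighbouring groups overlapped but the lowest pair.

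The 2 libraries of a group differed in a repeated way. Fcgr1 RPKM was higher in replicate 2 in 10 of 10 groups, whereas Fcgr4 RPKM was higher in replicate 1 in 10 of 10, Fcgr2b in 9 and Fcgr3 in 8. On the log2 CPM scale with TMM library sizes, replicate 1 minus replicate 2 had a median over groups of -0.63 for Fcgr1 and 0.54 for Fcgr4. A fit with the replicate number as a block removes such an offset, and its values are given below where they change a call on a receptor or move a list's counts. The fits below that leave out 1 library are without the block unless stated, so a group left with 1 library carries its offset.

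RANKL lowered Fcgr1, Fcgr2b and Fcgr3 between 4 and 24 hours. At 4 hours Fcgr1 stood at 6.10 and 10.5 RPKM, below both untreated libraries. Fcgr3, at 4.11 and 3.62, was also below both. Fcgr2b, the inhibitory receptor, stood at 5.59 and 4.07 RPKM, which overlapped untreated cells at the low end. None of the 4 receptors passed the test at 4 hours, where edgeR's quasi-likelihood test with Benjamini-Hochberg adjustment over 16042 genes (adjusted p under 0.05, as throughout) called 3.91% of genes. The log2 fold change was -0.96 ± 0.42 (SE, adjusted p = 0.303) for Fcgr1, 0.52 ± 0.25 (0.375) for Fcgr2b, -0.71 ± 0.21 (0.0807) for Fcgr3 and -0.08 ± 0.44 (0.992) for Fcgr4. At an unadjusted p under 0.05, 2 of 4 receptors and 2366 of 16042 genes passed, and DESeq2 called 1 receptor. With the replicate block, where 14.5% of genes were called, Fcgr1 (adjusted p = 0.0045) and Fcgr3 (0.00999) were called lower and Fcgr2b (0.0173) higher. Without untreated replicate 2 that block called 2 receptors.

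By 14 hours the same 3 receptors had fallen. Fcgr3 stood at 0.677 and 0.627 RPKM, 9.2-fold below untreated cells (log2 -3.20 ± 0.23, edgeR adjusted p = 1.21e-06). Fcgr1 stood at 2.21 and 3.58 RPKM (log2 -2.41 ± 0.44, adjusted p = 0.00169) and Fcgr2b at 1.18 and 0.709 (log2 -1.77 ± 0.27, adjusted p = 0.000371). In none of these 3 did the RANKL libraries overlap the untreated ones. The test called 18.4% of all genes at that hour. Fcgr4 stood at 1.52 and 0.681 RPKM and did not pass (log2 -0.30, interval of ± 2 SE from -1.18 to 0.58).

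At 24 hours of RANKL the falls of the 3 receptors were of like size. Fcgr1 was at 0.645 and 1.66 RPKM, from 67 and 176 counts, which is 13.7-fold lower than untreated (log2 -3.78 ± 0.48, edgeR adjusted p = 6.72e-05). Fcgr2b was at 0.297 and 0.224 RPKM, 12.7-fold lower (log2 -3.67 ± 0.30, adjusted p = 1.34e-06). Fcgr3 was at 0.531 and 0.493 RPKM, from 37 and 35 counts, 12.1-fold lower (log2 -3.60 ± 0.24, adjusted p = 2.58e-07). The groups did not overlap for any of these 3 genes, and all 3 were called at both 14 and 24 hours in each of the 4 fits that left out 1 library. Fcgr4, at 1.05 and 0.953 RPKM, lay inside the untreated range and did not pass (log2 -0.47 ± 0.45, adjusted p = 0.544, interval -1.36 to 0.43). Whether its change differs from those of the other receptors was not tested. Of all genes 18.9% were called, with a median log2 change of 0.05.

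**Figure D2:**
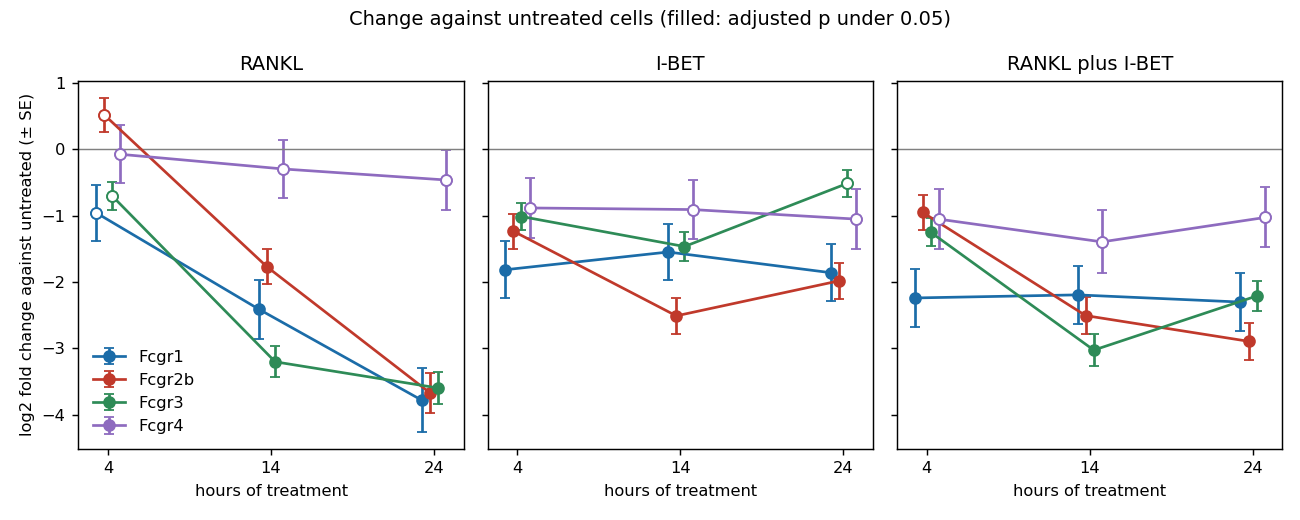
Log2 fold change against untreated cells (vertical axis, ± SE) at 4, 14 and 24 hours for RANKL, I-BET and both, with edgeR calls (adjusted p under 0.05) filled. In RANKL the lines of Fcgr1, Fcgr2b and Fcgr3 meet near -3.78 to -3.60 at 24 hours while Fcgr4 stays at -0.47, and with both agents the 24-hour values of Fcgr1 and Fcgr3 are -2.30 and -2.21.

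In bulk RNA, fewer cells of a type and less RNA per cell cannot be told apart. Of the 8 macrophage markers 6 fell and none rose in RANKL at 24 hours against untreated cells (7 and none with the block). No marker of these was at 0, and their summed level was 1305 to 1575 RPKM against 4930 to 5119. Of 9 osteoclast markers 8 were tested and 6 rose, with a summed level of 231 to 295 RPKM against 33.7 to 59.6 in untreated cells, and Calcr, the calcitonin receptor gene, at 0 in both groups. The part of these shifts in the receptor changes was not tested.

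The steps between hours placed the falls. From 4 to 14 hours of RANKL, when 17.7% of genes were called, Fcgr3 fell by 2.5 ± 0.23 (log2, edgeR adjusted p = 8.55e-06) and Fcgr2b by 2.29 ± 0.27 (adjusted p = 6.87e-05). Fcgr1 fell by 1.45 ± 0.43 (adjusted p = 0.032), a call that was lost without RANKL 4 h replicate 2 (0.235) or RANKL 14 h replicate 1 (0.2), and with only the 4 libraries compared (0.0679). From 14 to 24 hours only Fcgr2b passed, falling by 1.90 ± 0.29 (adjusted p = 0.00258), where 2.9% of genes were called. That call was lost with limma on log2(RPKM + 1) (0.119) and with only those 4 libraries (0.14). Fcgr1 did not pass in that step (log2 -1.37 ± 0.46, adjusted p = 0.146). It was called with the block (0.00197, with 16.9% of genes called) and with DESeq2 (0.025). With no low-count filter it was also called (3.43e-09), at a like log2 change and a smaller SE (-1.40 ± 0.21). Fcgr3 (-0.39) and Fcgr4 (-0.17) did not pass in either fit.

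I-BET alone also lowered the 3 receptors at 4 hours and 14 hours, and 2 of them at 24 hours, in the fit without the block. Fcgr1 levelled off: its libraries read 4.56 and 5.20 RPKM at 4 hours, 4.96 and 6.28 at 14 hours and 4.42 and 4.57 at 24 hours, all below the untreated ones. The log2 changes of Fcgr1 were -1.82 ± 0.43 (edgeR adjusted p = 0.0165), -1.55 ± 0.43 (0.0269) and -1.86 ± 0.43 (0.00799). Fcgr2b fell further, from 1.83 and 1.19 RPKM at 4 hours to 0.607 and 0.591 at 14 hours, with 0.829 and 0.885 at 24 hours. Its log2 changes were -1.24 ± 0.26 (adjusted p = 0.00846), -2.51 ± 0.27 (4.03e-05) and -1.98 ± 0.27 (0.000143). The inhibitory receptor thus stood 5.7-fold below untreated cells at 14 hours, and no I-BET library of Fcgr1 or Fcgr2b overlapped the untreated ones.

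Fcgr3 had another course in I-BET. It read 3.59 and 3.01 RPKM at 4 hours (log2 -1.01 ± 0.21, edgeR adjusted p = 0.00759) and 2.42 and 2.21 at 14 hours (log2 -1.47 ± 0.21, adjusted p = 0.000374). At 24 hours it read 4.62 and 4.25 RPKM, under both untreated libraries, and the fall of 0.52 ± 0.21 did not pass (adjusted p = 0.108) except with the block (0.0287). Fcgr4 read 0.993 and 0.614, 0.898 and 0.613, and 0.792 and 0.564 RPKM at the 3 hours. It did not pass at 4 hours (log2 -0.89 ± 0.45, adjusted p = 0.261), 14 hours (-0.91 ± 0.45, 0.238) or 24 hours (-1.05 ± 0.45, 0.134). With the block it was called lower at each hour (0.0232, 0.0172 and 0.00576).

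The shares of all genes called in I-BET against untreated cells were 10.5%, 13.7% and 17.7% at the 3 hours, and 29%, 29.8% and 36.2% with the block. These comparisons and those of RANKL share the untreated libraries. With the block, which removes the replicate offset, edgeR called Fcgr1 at all 3 hours (adjusted p = 3.42e-05, 6.62e-05 and 1.12e-05). In the fit without the block, left-out libraries mattered most for Fcgr1. Its call was lost at 14 hours without any one of the 4 libraries (adjusted p 0.0636 to 0.177). At 4 hours it was lost without untreated replicate 2 (0.109), I-BET replicate 1 (0.105) or I-BET replicate 2 (0.107), and at 24 hours without the same 3 (0.0578, 0.0634 and 0.0577). At 4 hours Fcgr2b and Fcgr3 were lost without untreated replicate 1 (0.09 and 0.0754) or I-BET replicate 2 (0.111 and 0.0959).

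Between hours of I-BET, Fcgr2b fell from 4 to 14 hours by 1.27 ± 0.27 (log2, edgeR adjusted p = 0.0136), and 5.31% of genes were called. That call was lost without I-BET 4 h replicate 1 (0.141), I-BET 14 h replicate 1 (0.0995) or I-BET 14 h replicate 2 (0.0985). From 14 to 24 hours none of the 4 receptors passed and 0.0374% of genes did, while 1 receptor had an unadjusted p under 0.05 and DESeq2 called 1. Fcgr3 was higher in both I-BET libraries of 24 hours than in either of 14 hours (log2 0.95 ± 0.21, adjusted p = 0.155), and it was called with the block (0.00566, with 2.49% of genes called).

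Cells that received RANKL plus I-BET had lower Fcgr1, Fcgr2b and Fcgr3 than untreated cells at every hour. Fcgr1 changed little with time, with log2 changes against untreated of -2.24 ± 0.44 (edgeR adjusted p = 0.00427), -2.19 ± 0.44 (0.00393) and -2.30 ± 0.44 (0.0022) at 4, 14 and 24 hours. Its libraries read 2.70 and 4.24, then 2.46 and 4.43, then 2.71 and 3.89 RPKM. Fcgr2b read 2.01 and 1.52 RPKM at 4 hours (log2 -0.95 ± 0.26, adjusted p = 0.0275), 0.652 and 0.522 at 14 hours (-2.51 ± 0.28, 4.64e-05) and 0.470 and 0.441 at 24 hours (-2.89 ± 0.28, 8.5e-06). Fcgr3 read 2.75 and 2.60 RPKM at 4 hours (log2 -1.25 ± 0.21, adjusted p = 0.00164), 0.639 and 0.857 at 14 hours (-3.03 ± 0.24, 3.18e-06) and 1.03 and 1.70 at 24 hours (-2.21 ± 0.22, 1e-05). For all 3 genes both treated libraries lay under both untreated ones at each hour.

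Fcgr4 with both agents read 0.816 and 0.549, 0.530 and 0.518, and 0.876 and 0.516 RPKM, and did not pass at 4 hours (log2 -1.05 ± 0.45, edgeR adjusted p = 0.164), 14 hours (-1.40 ± 0.48, 0.0686) or 24 hours (-1.03 ± 0.45, 0.145). With the block it was called lower at all 3 hours (0.00773, 0.00207 and 0.00673), and at 14 hours also without untreated replicate 2 (0.0389), with DESeq2 (0.0392) and with no low-count filter (0.00948). Of all genes 12.8%, 14.2% and 17.9% were called at the 3 hours, and 30.2%, 31.3% and 37.5% with the block. The 4-hour fall of Fcgr2b was lost without untreated replicate 1 (0.247) or without either treated library (0.0544 and 0.184), and also with limma or with only the libraries compared. Fcgr1 was lost without the first treated library at 4 hours (0.055) and at 14 hours (0.059).

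From 4 to 14 hours of RANKL plus I-BET, when 9.4% of genes were called, Fcgr3 fell by 1.77 ± 0.23 (log2, edgeR adjusted p = 0.000354) and Fcgr2b fell by 1.55 ± 0.27 (0.00276). Fcgr1 did not move beyond its spread (log2 0.05 ± 0.43, interval -0.82 to 0.91). From 14 to 24 hours 0.424% of genes and none of the receptors passed. One receptor had an unadjusted p under 0.05 and DESeq2 called 0. Fcgr3 had a log2 difference of 0.82 ± 0.24 (adjusted p = 0.196), which was called with the block (0.0381, with 7.34% of genes called).

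Adding I-BET to RANKL lowered Fcgr2b at 4 hours and raised Fcgr1 and Fcgr3 at 24 hours. At 4 hours Fcgr2b was 2.77-fold lower with I-BET than with RANKL alone (log2 -1.47 ± 0.26, edgeR adjusted p = 0.00237), at 2.01 and 1.52 RPKM against 5.59 and 4.07. The other 3 did not pass, with log2 differences of -1.28 ± 0.43 for Fcgr1 (adjusted p = 0.0732), -0.55 ± 0.21 for Fcgr3 (0.12) and -0.98 ± 0.44 for Fcgr4 (0.2). In each of the 4 genes both libraries with I-BET lay under both without, and the block called all 4 lower (p 0.000508 for Fcgr1, 0.0271 for Fcgr3, 0.00803 for Fcgr4). Of all genes 11.4% were called, and 28.1% with the block.

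At 14 hours no receptor passed between RANKL plus I-BET and RANKL, where edgeR called 22.1% of genes, although 2 receptors had an unadjusted p under 0.05 and DESeq2 called 0. Fcgr1 (log2 0.22, interval -0.65 to 1.08) and Fcgr3 (0.18, interval -0.32 to 0.67) overlapped between the groups. Fcgr2b (-0.73 ± 0.27, adjusted p = 0.0742) and Fcgr4 (-1.10 ± 0.46, 0.114) were lower in both I-BET libraries and were called with the block (0.0028 and 0.00834, with 40.2% of genes called). Without RANKL 14 h replicate 2, Fcgr2b also passed (0.0318).

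At 24 hours Fcgr3 was 2.61-fold higher with I-BET than with RANKL alone, at 1.03 and 1.70 RPKM against 0.531 and 0.493 (log2 1.39 ± 0.24, edgeR adjusted p = 0.00068). This call held in each of the 4 fits without 1 library. Fcgr1 was 2.79-fold higher, at 2.71 and 3.89 RPKM against 0.645 and 1.66 (log2 1.48 ± 0.46, adjusted p = 0.0268). With the block its difference was 1.51 ± 0.25 (adjusted p = 0.000192). Without the block the Fcgr1 call was lost when RANKL 24 h replicate 1 was left out (log2 0.95). It was also lost without RANKL plus I-BET 24 h replicate 2 (log2 1.18) and with only these 4 libraries (adjusted p = 0.0565). Fcgr2b, at 0.470 and 0.441 RPKM against 0.297 and 0.224, did not pass (log2 0.78 ± 0.30, adjusted p = 0.0691). It was called with the block (0.00348) and with no low-count filter (0.00518). Fcgr4 was lower in both I-BET libraries and did not pass (log2 -0.56, interval -1.45 to 0.33). Both calls stand against a share of 26.8% of all genes called, and 46.6% with the block. Of the macrophage markers 2 rose and 2 fell in this comparison (3 and 3 with the block). Their summed level was 2538 to 2958 RPKM with both agents, and none was at 0. Of the 8 osteoclast markers tested 7 fell, to a summed 7.09 to 10.7 RPKM, with Calcr at 0. Their part in the receptor differences was not tested.

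RANKL added to I-BET lowered a single receptor, Fcgr3, in the fit without the block. At 4 hours none of the 4 receptors passed between RANKL plus I-BET and I-BET (0 at an unadjusted p under 0.05 and 0 by DESeq2), where edgeR called 0.517% of genes. Fcgr3 was 2.95-fold lower with RANKL at 14 hours (log2 -1.56 ± 0.23, edgeR adjusted p = 0.00679) and 3.24-fold lower at 24 hours (-1.69 ± 0.22, 0.00905), with no overlap of libraries. The shares of all genes called were 0.904% and 0.262%. The 14-hour call was lost without I-BET replicate 1 (0.0703) or RANKL plus I-BET replicate 1 (0.163), the 24-hour call without the same libraries of that hour (0.112 and 0.0887), and both with only the 4 libraries compared (0.242 and 0.384). Fcgr2b at 24 hours was lower with RANKL in both libraries (log2 -0.91 ± 0.27, adjusted p = 0.38) and was called with the block (0.00477, with 2.95% of genes called). Fcgr1, whose RNA fell 13.7-fold when RANKL was given alone, differed by -0.44 ± 0.43 here at 24 hours (interval -1.29 to 0.41).

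The difference between those RANKL effects was tested as an interaction, the RANKL effect in the presence of I-BET minus the RANKL effect in its absence, on the log2 scale. At 24 hours it was 3.34 ± 0.63 for Fcgr1 (edgeR adjusted p = 0.00511), 2.76 ± 0.40 for Fcgr2b (0.000803) and 1.90 ± 0.32 for Fcgr3 (0.00236), and each of these was called in all 8 fits without 1 library. For these receptors the fall from untreated cells to RANKL was larger than that from I-BET to RANKL plus I-BET. The first is taken against cells labelled hour 0 and so includes time in culture, while the second is taken within 1 hour group. Time in culture and an interaction of the agents therefore cannot be told apart here. Fcgr4 gave 0.49 ± 0.63 (adjusted p = 0.798, interval -0.77 to 1.75). Of all genes 5.25% were called.

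Fewer interactions passed at the earlier hours. At 14 hours Fcgr2b gave 1.78 ± 0.38 (edgeR adjusted p = 0.0222) and Fcgr3 1.64 ± 0.32 (0.013), with 2.78% of genes called. Fcgr2b was lost in 6 of 8 fits without 1 library, namely untreated replicate 1 (0.0905), RANKL replicate 2 (0.0766), and either library of I-BET (0.0803 and 0.0806) or RANKL plus I-BET (0.0877 and 0.0586). Fcgr3 was lost in 4, without untreated replicate 1 (0.056), RANKL replicate 1 (0.051), I-BET replicate 2 (0.0618) or RANKL plus I-BET replicate 2 (0.133). Fcgr1 had the same size, 1.77 ± 0.61, and did not pass (0.183). It was called with the block (0.0017, with 11.7% of genes called) and with DESeq2 (0.0467). With no low-count filter it was also called (4.21e-08), at a like value and a smaller SE (1.75 ± 0.27). At 4 hours the test called 0% of genes (702 at an unadjusted p under 0.05) and none of the receptors at either p, nor did DESeq2 call any of the 4. The fitted values at 4 hours ran from -0.24 for Fcgr2b to 0.53 for Fcgr1.

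**Figure D3:**
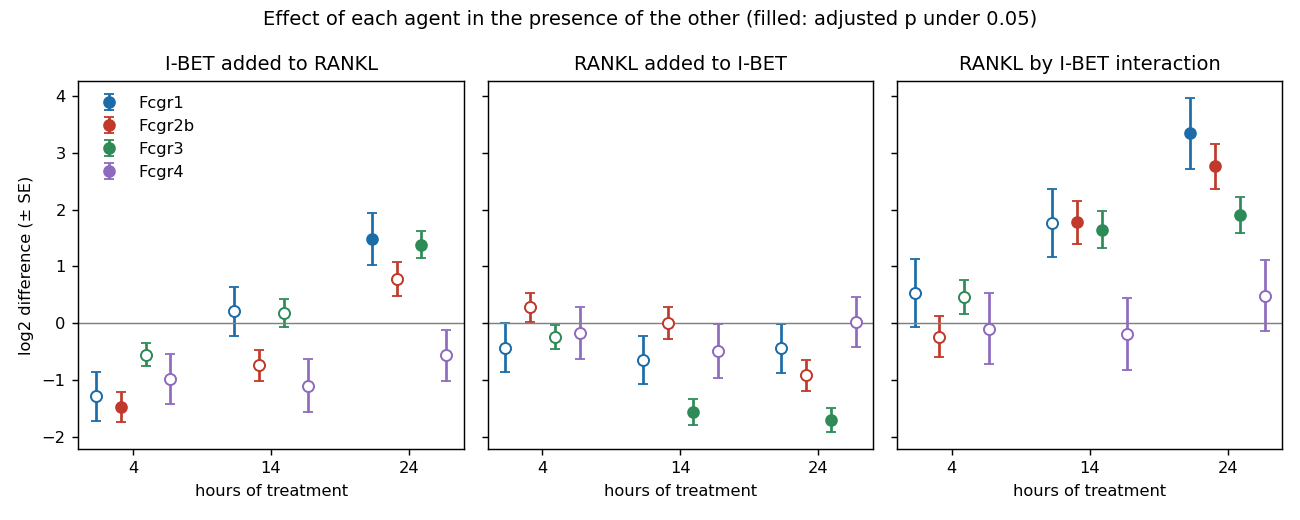
Log2 difference (± SE) for I-BET added to RANKL, for RANKL added to I-BET and for their interaction at 4, 14 and 24 hours, with edgeR calls (adjusted p under 0.05) filled. I-BET added to RANKL gives -1.47 for Fcgr2b at 4 hours and 1.39 for Fcgr3 at 24 hours, and the interaction at 24 hours is above 0 for Fcgr1, Fcgr2b and Fcgr3.

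The make-up of the receptor pool shifted with these changes. The summed RPKM of the 4 genes was 27.8 and 24.4 in untreated cells, 17.4 and 19.2 at 4 hours of RANKL, 5.58 and 5.59 at 14 hours and 2.53 and 3.33 at 24 hours. Fcgr1 made up 52.4% and 66.2% of the sum in untreated cells and 25.5% and 49.9% in RANKL at 24 hours. Fcgr4, the smallest part of the untreated sum at 7.21% and 3.33%, made up 41.7% and 28.6% of the sum in RANKL at 24 hours, while its own RPKM there was inside the untreated range. In replicate 1 of that group Fcgr4 was the most abundant of the 4 receptors, and in replicate 2 it was next after Fcgr1. In I-BET at 24 hours the sum was 10.7 and 10.3 RPKM, and Fcgr3 held 43.3% and 41.4% of it against 25.6% and 20.6% in untreated cells.

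**Figure D4:**
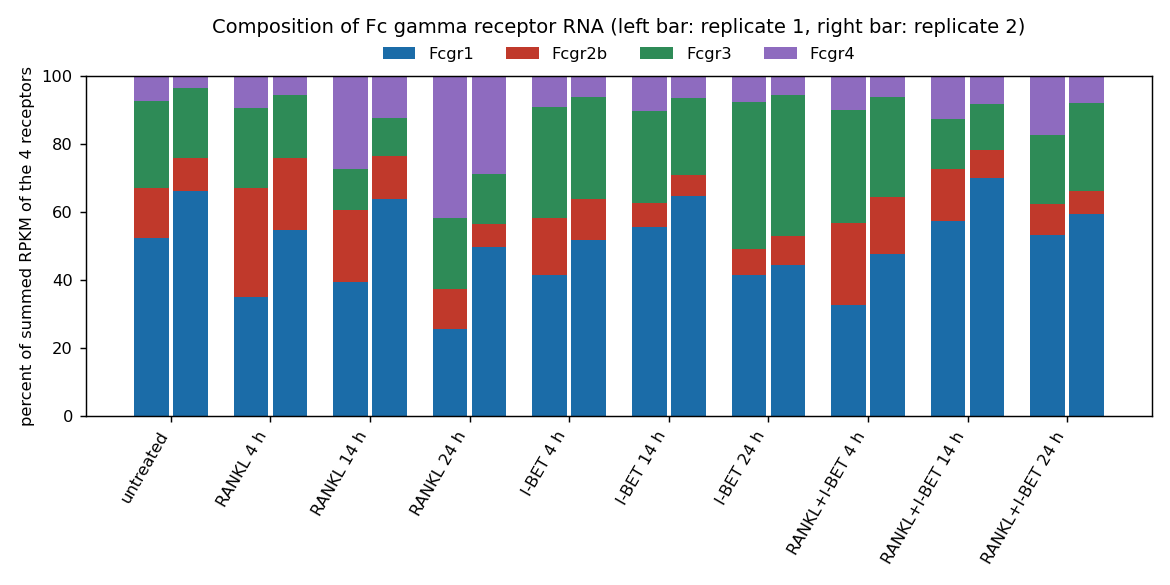
Share of each receptor in the summed RPKM of the 4 genes (vertical axis, percent, from 0 to 100), with replicate 1 as the left bar and replicate 2 as the right bar of each group. The Fcgr4 part grows from 7.21% and 3.33% in untreated cells to 41.7% and 28.6% in RANKL at 24 hours, and Fcgr3 holds 43.3% and 41.4% in I-BET at 24 hours.

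The balance of the inhibitory Fcgr2b and the activating Fcgr3, both low-affinity receptors, is described by the ratio of their RPKM. It was 0.576 and 0.482 in untreated cells. RANKL at 4 hours had 1.36 and 1.12 and RANKL at 14 hours 1.74 and 1.13, so by RPKM Fcgr2b exceeded Fcgr3 in all 4 of those libraries. Which of the 2 is larger depends on the gene lengths used, 5790 bases for Fcgr2b and 1736 for Fcgr3. In counts Fcgr2b was already above Fcgr3 in untreated cells, at 453 against 236 in replicate 1 and 563 against 350 in replicate 2. Changes of the ratio between groups do not depend on these lengths. At 24 hours of RANKL the ratio was back at 0.559 and 0.454, near the untreated values, with both genes low. In I-BET it was 0.251 and 0.268 at 14 hours and 0.179 and 0.208 at 24 hours, under both untreated values. RANKL plus I-BET had 0.730 and 0.582 at 4 hours, 1.02 and 0.609 at 14 hours and 0.457 and 0.260 at 24 hours. No test was made on these ratios.

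Across the 10 group means of log2 CPM, Fcgr1 and Fcgr3 were the most alike pair (Pearson r = 0.83), followed by Fcgr1 with Fcgr2b (0.80) and Fcgr2b with Fcgr3 (0.74). Fcgr4 was less like the others, with r of 0.52 to Fcgr2b, 0.36 to Fcgr1 and 0.21 to Fcgr3. Each correlation rests on only 10 group means from shared libraries and no test was made, so these values only describe the patterns. Among genes whose CPM averaged 5 or more, the pattern most like that of Fcgr1 was of Tfeb (r = 0.96, Spearman's rho = 0.83), a regulator of lysosome genes, followed by Fgd4, Adap1, Sp110 and Casp1. Fcgr2b was most like Ms4a6c (r = 0.98, rho = 0.95), followed by Rab32, Il10rb and Fyb. Fcgr3 was most like Tyrobp (r = 0.96, rho = 0.99), which encodes the ITAM adaptor DAP12, followed by Slc29a3, Irf2bp2, Ptpre and Tex264. Fcgr4 was most like Dtx3l (r = 0.96, rho = 0.90), followed by Snx10, 4933427D14Rik, Pdlim2 and Txnl4b.

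The partner chain and the signalling genes moved in both directions. Fcer1g, the common gamma chain that the activating receptors need at the surface, stood at 253 and 192 RPKM in untreated cells, far above any receptor. It was at 111 and 106 RPKM after 24 hours of RANKL (log2 -1.07 ± 0.11, edgeR adjusted p = 1.05e-05) and at 209 and 228 with I-BET as well (log2 0.98 ± 0.11 against RANKL, adjusted p = 1.94e-05). Syk, the kinase recruited to the ITAM, did not pass in RANKL at 24 hours (log2 -0.06 ± 0.08) and was higher by 0.67 ± 0.08 with I-BET added (adjusted p = 4.2e-05). Of 19 ITAM signalling genes tested, 2 rose and 7 fell in RANKL at 24 hours against untreated cells, with a median log2 change of -0.19 against 0.05 over all genes. The largest changes were of SRC family kinases, Src rising by 3.06 ± 0.50 and Fgr falling by 2.52 ± 0.20. The block counted 4 higher and 8 lower. The lists that follow stand beside 18.9% of all genes called in RANKL at 24 hours (36.8% with the block) and 26.8% with I-BET added to RANKL (46.6% with the block). With I-BET added to RANKL, 11 of the 19 were higher and 6 lower (12 and 7 with the block), the largest difference among the lower ones being Src at -4.21 ± 0.52 on the log2 scale.

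On the inhibitory side, Inpp5d (SHIP1), the phosphatase downstream of the Fcgr2b product, fell by 1.09 ± 0.13 (log2, edgeR adjusted p = 4.2e-05) in RANKL at 24 hours and was higher by 0.87 ± 0.13 with I-BET added. Ptpn6, which encodes the phosphatase SHP-1, fell by 0.74 ± 0.13 and was higher by 1.09 ± 0.13 with I-BET added. Of 13 inhibitory signalling genes, 5 fell and none rose in RANKL at 24 hours, and with I-BET added to RANKL 4 were higher and 3 lower. With the block 7 fell, and 7 were higher and 4 lower with I-BET added. Sirpa, the receptor for the CD47 signal that restrains phagocytosis, fell by 1.72 ± 0.11 and was higher by 1.77 ± 0.11 with I-BET added. Dok2, an adaptor, was lower by 2.12 ± 0.36 with I-BET added. The list medians were -0.29 and 0.25, against 0.05 and -0.05 over all genes.

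Among 17 genes of actin remodelling in phagocytosis, 4 fell and none rose in RANKL at 24 hours, the largest change being that of Myo1f, a myosin, which fell by 2.25 ± 0.11 (log2). With I-BET added to RANKL 6 were higher and none lower, led by Coro1a, an actin-binding protein, at 2.01 ± 0.41. With the block 9 fell and 1 rose in RANKL, and 9 were higher and 1 lower with I-BET added. The 4 of 17 without the block are near the 18.9% of all genes called. The list medians were -0.21 and 0.18. Of 12 other Fc receptor genes only 5 had enough counts to be tested, of which 2 fell in RANKL at 24 hours and 2 were lower with I-BET added, with medians of -0.42 and -1.06. Trim21, the cytosolic antibody receptor, fell by 0.80 ± 0.18 in RANKL, and Fcrl1, an Fc receptor-like gene, was lower by 1.06 ± 0.15 with I-BET added.

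Of 9 genes of complement receptors and components, 6 fell and none rose in RANKL at 24 hours (median -3.01). With I-BET added to RANKL 3 were lower and none higher (median -0.45). With the block these counts were 6 and 4. C5ar1, the receptor for the complement fragment C5a, read 35.7 and 21.9 RPKM in untreated cells and 2.67 and 2.70 in RANKL at 24 hours (log2 -3.45 ± 0.35, edgeR adjusted p = 9.56e-06). C3ar1, the C3a receptor, was lower by 1.69 ± 0.42 with I-BET added to RANKL at 24 hours (adjusted p = 0.00815). Fcgr1 and Fcgr3 were higher in that same comparison, by 1.48 and 1.39.

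Of 10 transcription regulators of myeloid genes, 8 fell and none rose in RANKL at 24 hours (median -0.80), and 4 were higher and 1 lower with I-BET added (median 0.76). With the block 8 fell and 1 rose in RANKL, and 8 were higher and 1 lower with I-BET added. Irf8, a myeloid regulator, read 7.46 and 9.44 RPKM in untreated cells, 0.590 and 0.859 in RANKL at 24 hours and 8.02 and 9.38 with I-BET as well. Its log2 change was -3.60 ± 0.35 for RANKL (edgeR adjusted p = 6.49e-06) and 3.55 ± 0.35 for I-BET added to RANKL (5.71e-06). Spi1, which encodes PU.1, did not pass in RANKL at 24 hours (log2 0.33 ± 0.14, adjusted p = 0.126), was called higher with the block (0.0074), and was lower by 0.49 ± 0.14 with I-BET added (0.0188).

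Genes near the receptors were counted in the same way. Within 300 kb of the chromosome 1 cluster lie 39 other genes, of which 23 were tested: 1 rose and 3 fell in RANKL at 24 hours, with a median log2 change of 0.03. These 4 of 23 are near the 18.9% of all genes called, and the block counted 3 and 5. The largest of these falls was that of Fcer1g, which lies 169430 bases from Fcgr3. With I-BET added to RANKL 1 was higher, Fcer1g itself, and 2 were lower, the larger difference being Dedd at -0.39 (4 and 8 with the block). Around Fcgr1 on chromosome 3, 24 of 49 genes were tested, and 1 rose (Otud7b, 0.56) and 3 fell (the largest Txnip, -0.76) in RANKL at 24 hours, with a median of -0.11 (3 and 5 with the block). With I-BET added to RANKL 4 were higher, led by Txnip at 1.51, and 3 lower, led by Plekho1 at -0.78 (7 and 4 with the block). Around Fcgr1 the genes called without the block are thus near the shares of all genes. Those shares were 18.9% in RANKL at 24 hours and 26.8% with I-BET added.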

How the data were processed

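RNA was poly(A) selected and sequenced as paired reads, per the labels' protocols. Per the submitters' processing notes, the authors used FastQC, STAR 2.5.3a, DESeq2 1.16.1 and GRCm38 (mm10). The counting tool is not given in the sources used here. The authors deposited raw read counts per gene and RPKM, which equal counts divided by length and library total (within 0.1% for all 15938 genes with at least 10 counts in a library). RPKM therefore add no independent data.

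Counts were fitted with edgeR 4.0.16 (R 4.3.3): TMM, filterByExpr by group (16042 genes tested, the 4 receptors included), a group-means design on the 20 libraries with 10 residual degrees of freedom, quasi-likelihood F tests with robust estimation and Benjamini-Hochberg adjustment within each of 24 comparisons. With 96 pairs of receptor and comparison, 40 were called. The script was tested on simulated data. Same-numbered libraries deviated together from their group means in all 45 pairs of groups (correlation 0.221 to 0.596, median 0.454), so the replicate number pairs them, and it was fitted as a block in an alternative. Its biological coefficient of variation was 0.0751 against 0.162. DESeq2 1.42.0, limma 3.58.1 on log2(RPKM + 1) or log2(RPKM + 0.1), RLE factors, no count filter, only the libraries compared and leaving out each library were further alternatives. The fit without 5 rRNA-related genes was added after seeing the data.

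The receptors and gene lists were chosen with earlier results of these data known. Named genes were the receptors, 7 set signalling and regulator genes, the largest called rise and fall of each list (mean CPM of at least 5) in 2 comparisons at 24 hours, and the 5 most correlated genes per receptor. A few of these genes are not reported here. Symbols were deposited for 42745 genes and came from GENCODE for 7915. Library totals limit precision, and counting error is smallest in the deepest libraries. Figures used matplotlib 3.10.9.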

Additional observations from a re-analysis of the deposited data

Results flagged for a closer look

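The RANKL by I-BET interaction test of edgeR called 5 pairs of receptor and hour. At 14 hours these were Fcgr2b, with an interaction of 1.78 on the log2 scale, and Fcgr3, with 1.64. At 24 hours they were Fcgr1 with 3.34, Fcgr2b with 2.76 and Fcgr3 with 1.90. All 5 are above 0, which means a smaller fall, or a larger rise, from I-BET to RANKL plus I-BET than from untreated cells to RANKL. Fcgr4 was not among them at any hour. The untreated libraries enter each of these values, so the 5 are not independent of each other. Those libraries are labelled hour 0, so time in culture and an interaction of the agents cannot be told apart.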

How the results depend on the processing

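No alternative reversed the direction of a called receptor. Of 96 pairs of receptor and comparison, 40 were called. Of these, 25 were called in every fit without 1 library and 15 were not; such a fit keeps 1 library in a group and assumes that it varies like the others. RLE factors and the fit without 5 rRNA-related genes changed 0 calls. The replicate block lost 0 and gained 21, each given beside its result, and changed no other call. Each number below is of receptors called, of 4. The next paragraph gives those that moved by over 1.5 times, and the one after it the smaller moves.

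With the replicate block it was 3 in RANKL at 4 hours against untreated, 4 in I-BET at 24 hours against untreated, 4 at 4 hours and 2 at 14 hours for I-BET added to RANKL, 2 for RANKL added to I-BET at 24 hours, and 2, 1 and 1 for the step from 14 to 24 hours in RANKL, I-BET and both. That block without untreated replicate 2 called 2 in RANKL at 4 hours and 4 in I-BET at 24 hours. With no low-count filter it was 1 in RANKL at 4 hours, 2 and 2 for I-BET added to RANKL at 4 and 14 hours, 2 for RANKL added to I-BET at 24 hours, and 2 and 1 for the 14 to 24 hour step in RANKL and I-BET. DESeq2 called 1, 2, 2 and 1 in RANKL at 4 hours, I-BET added to RANKL at 4 hours and those 2 steps. With limma on log2(RPKM + 1) it was 2 for I-BET added to RANKL at 4 hours, 0 for the 14 to 24 hour step in RANKL and 0 for the 4 to 14 hour step in I-BET. With only the libraries compared it was 1 for I-BET added to RANKL at 24 hours, 0 and 0 for RANKL added to I-BET at 14 and 24 hours, 1 for the interaction at 14 hours, 0 for the 14 to 24 hour step in RANKL and 0 for the 4 to 14 hour step in I-BET. That fit has fewer samples; the cause of the other changes was not tested.

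Smaller moves were these. The block, with or without untreated replicate 2, gave 4 in place of 3 in I-BET at 4 and 14 hours and in both agents at 4, 14 and 24 hours, and 3 in place of 2 for the interaction at 14 hours. The block alone gave 3 in place of 2 for I-BET added to RANKL at 24 hours. No low-count filter and DESeq2 each gave 4 in both agents at 14 hours and 3 for the interaction at 14 hours, and no filter also 3 for I-BET added to RANKL at 24 hours. In both agents at 4 hours, limma with either pseudocount and only the libraries compared gave 2 in place of 3, and the latter also gave 2 in place of 3 for the 4 to 14 hour step in RANKL.

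Leaving out 1 library gave 0 to 2 in I-BET at 4 hours, 1 to 2 in I-BET at 24 hours, 1 to 3 in both agents at 4 hours, 0 to 1 and 1 to 2 for I-BET added to RANKL at 14 and 24 hours, 0 to 1 and 0 to 1 for RANKL added to I-BET at 14 and 24 hours, 0 to 2 for the interaction at 14 hours and 0 to 1 for the 4 to 14 hour step in I-BET. Over all genes the block called 1.74 to 7.28 times as many as without it, in the 19 comparisons with over 100 calls. In the same comparisons DESeq2 called 1.06 to 2.81 times as many as the fit without the block, and no low-count filter 0.888 to 2.18 times. TMM scaling of RPKM moved 0 of 40 levels beyond the spread (ratios 0.941 to 1.05). Fcgr4 rests on 18 to 116 counts per library, which limits its precision. Fcgr3 also rests on few counts where it is low, 37 and 35 in RANKL at 24 hours.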
